A study of Mus musculus with 20 samples.

Results

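The core autophagy genes are a list of 34 mouse genes, named by symbol. Most act in building and closing the autophagosome, while Nbr1 encodes a receptor and Tfeb a transcription factor. All 34 were found among the 14924 genes counted in total and polysomal RNA of NSC-34 cells. They were listed by name and function and no value entered the rule, although earlier results of these data were known when the list was made. NSC-34 is a mouse motor neuron-like line, and HuD (ELAVL4) is a neuronal RNA binding protein of the ELAV family. The series measured the crosslinked sites of HuD on RNA (CRAC), total RNA (RNA-Seq), polysomal RNA (POL-Seq) and 3′ ends of mRNA, with and without induced HuD.

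CRAC had 3 libraries of Trex-HuD NSC-34 cells, which carry an inducible His-HA tagged human HuD, and 3 of control Trex NSC-34 cells, which carry the repressor alone. Per the labels all 6 were given 10 µg/ml tetracycline for 24 h. The study's results text instead names doxycycline for CRAC, at 2 µg/ml for 48 h, so the CRAC induction is uncertain. For the other assays the labels give the Trex-HuD cells 2 µg/ml tetracycline for 48 h. The study's methods name doxycycline at that dose for the inducible lines, so the drug is uncertain here too. RNA-Seq and POL-Seq had 2 HuD and 2 control libraries each, and 3′ end sequencing 3 of each. The labels give the control cells of these 3 assays as control only, with no treatment. As labelled, the drug and HuD go together in these assays, so their effects cannot be told apart. Below, an effect of HuD means HuD cells against control cells, the drug included. HuD came from an integrated lentiviral transgene on top of the cells' own Elavl4, and total and polysomal RNA came from cytoplasmic lysates of cells treated with cycloheximide.

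Autophagy starts when the ULK1 kinase complex is released from inhibition by mTORC1 and a class III PI3-kinase complex marks the forming membrane with PI3P. WIPI proteins bind PI3P, ATG9 vesicles and the ATG2 lipid bridge feed the growing membrane, and a ubiquitin-like conjugation system (ATG3, ATG5, ATG7, ATG10, ATG12, ATG16L1) links the ATG8 proteins (the LC3 and GABARAP groups) to lipid. In neurons autophagosomes form in the axon and travel back to the cell body, and motor neurons depend on this route to clear protein and worn organelles.

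HuD was crosslinked to the mRNAs of 8 of the 34 genes (23.5%), while 9.9% of the 12953 protein coding genes with counts had a HuD window. These were the ATG8 genes Gabarapl2, Gabarap and Map1lc3b, the PI3-kinase subunit Becn1, the autophagy receptor Nbr1, the ULK1 complex genes Rb1cc1 and Ulk2, and the conjugation gene Atg5. A window is the 7 or 8 nt stretch that the authors listed as a binding site, with the number of reads covering it and the number of reads with a deletion, the mark of a crosslink. The 8 mRNAs held 15 windows, all of them in the 3′ UTR, and none had a covering read in control cells. The authors penalized locations with control reads before they listed sites, so this absence is in part how the windows were listed. The replicates were pooled before deposit and the CRAC totals per library were not given, so these values carry no replicate error and their depth is unknown.

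Windows of 5 of the 8 mRNAs are shown, all those of Gabarapl2, Gabarap, Becn1 and Nbr1 and the one of Map1lc3b nearest to a 3′ end, because the results on coverage and position turn on them. Letters are RNA, 5′ to 3′, from GENCODE vM21 transcripts (GRCm38), with the listed window in capitals and 11 nt on each side. In the first line 4 overlapping or adjoining windows are capitals and 2 nt flank them.

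Gabarapl2, chr8:111952577-111952605, plus strand: agAGUUUUAUUUUCAGUUUUCUUUUUGug

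Gabarapl2, capitals at chr8:111952861-111952867, plus strand: uaaucuauucuUCUUUCUgagacuauuaa

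Gabarapl2, capitals at chr8:111952816-111952822, plus strand: uugcuucacuaGAUUUUGccaacugcaaa

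Gabarap, capitals at chr11:69994723-69994729, plus strand: cuuucuccccuUGUUUACccuccauuccc

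Becn1, capitals at chr11:101288684-101288690, minus strand: ccacaaaagcuACUUUAUuuucaaauaug

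Becn1, capitals at chr11:101288619-101288625, minus strand: aacccugccauAGUUUUGacucagcccca

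Map1lc3b, capitals at chr8:121596997-121597003, plus strand: aaaaauaaaauACUUUUUgcauccuaagu

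Nbr1, capitals at chr11:101580898-101580904, plus strand: accuguuacagUAUUUUUuggagcaaauc

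Each window holds a run of U behind an A, C or G. The authors kept a site only if it scored against a weight matrix of HuD sites, so this shared core is how the windows were listed and no finding about autophagy mRNAs.

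Gabarapl2, which encodes an ATG8 protein also known as GATE-16, had the most windows and reads of the 34 genes. Its 6 windows were covered by 65 to 110 reads each and carried 41 deletions in all. The 4 windows of the first line lie within 25 nt, so a read can cover several of them, and the 489 reads summed over windows count such reads more than once. By its highest window Gabarapl2 stood at place 132 of the 1282 HuD targets with counts. Gabarap, the founding member of its group, followed with 1 window of 56 reads and 3 deletions. Becn1, the Beclin 1 scaffold of the PI3-kinase complexes, had windows of 49 and 37 reads with 5 and 10 deletions. Map1lc3b, the LC3B gene whose lipid-linked product is the usual autophagosome marker, had windows of 43 and 24 reads with 13 and 3 deletions.

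The other 4 mRNAs were covered thinly. Nbr1, a receptor that hands ubiquitin-tagged cargo to ATG8 proteins, had 18 reads, of which 17 carried a deletion. Rb1cc1, which encodes the ULK1 scaffold FIP200, had 12 reads and 6 deletions at chr1:6274311-6274317. Ulk2, a kinase related to ULK1, had 8 reads and 4 deletions at chr11:61776890-61776896. Atg5, the conjugation partner of ATG12, had 6 reads and 3 deletions at chr10:44363958-44363964, which is the lowest coverage and the lowest deletion count in the deposited table. The authors' p-value of a window, which is not adjusted, was under 0.05 only for windows of Gabarapl2, Map1lc3b and Nbr1. The median of the highest window per gene was 30.5 reads for the 8 genes and 22 for all 1282 targets. Per CPM (a gene's counts scaled to the total of its library) of total RNA in control cells the medians were 0.218 and 0.226 reads, so coverage relative to mRNA level was close to that of other targets.

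The position of a window against the listed 3′ ends set Map1lc3b apart from the other 7 genes. Its window of 43 reads ends 9 nt upstream of a 3′ end listed at chr8:121597012, and the shown 29 nt hold the letters AAUAAA, the canonical polyadenylation signal. Of 2190 windows of protein coding genes with an end listed downstream, 0.411% lay within 9 nt of it and 6.67% within 50 nt, and their median distance was 544.5 nt. AAUAAA stood in 2.51% of the 2554 stretches of this length around windows of protein coding genes. The second Map1lc3b window lies 209 nt upstream of the more distal end, at chr8:121598046. The other 13 windows lie 211 to 1260 nt upstream of the next listed end. For Gabarapl2 and Rb1cc1 that end collected few reads, as described below, so their distances may refer to an end that these cells seldom used.

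**Figure D1:**
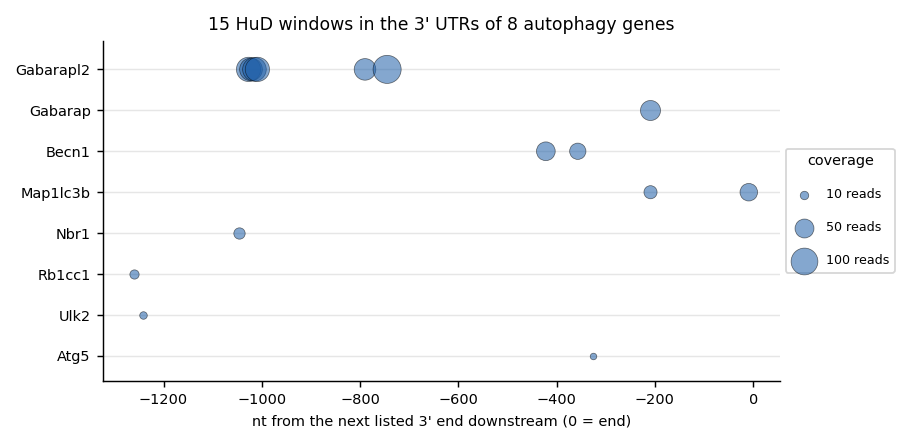
Position of the 15 HuD windows (points) on the mRNAs of 8 autophagy genes, as the distance in nt to the next listed 3′ end downstream, with the area of a point proportional to its coverage in reads. Gabarapl2 holds 6 of the 15 windows, and the Map1lc3b window at the right edge ends 9 nt before a listed end.

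The 8 bound mRNAs were, at the median, more abundant than the other members and had more U-rich cores per kb of 3′ UTR, although Rb1cc1 (4.93 RPKM) and Ulk2 (7.44 RPKM) were not among the abundant ones. The median level of the 8 in total RNA of control cells was 27.3 RPKM (CPM per kb of exons) against 6.69 for the other 26 genes, and all targets differed from protein coding genes without a window in the same direction (medians 21.0 and 6.03). A core was counted wherever AUUU, CUUU or GUUU was found on the sense strand of the longest 3′ UTR of GENCODE vM21, overlaps included. The bound genes had a median of 25.9 cores per kb, from 21.5 in Map1lc3b to 34.1 in Rb1cc1, and the other 26 had a median of 16.5. Of these 26, 23 lay below the lowest bound gene. The 3 at or above it were Atg4c, Atg3 and Atg12, with 43.3, 33.9 and 22.8 cores per kb. All targets had a median of 28.6 and genes without a window 19.8. Because the windows were selected by sequence, density and binding are not independent, and no test was made.

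**Figure D2:**
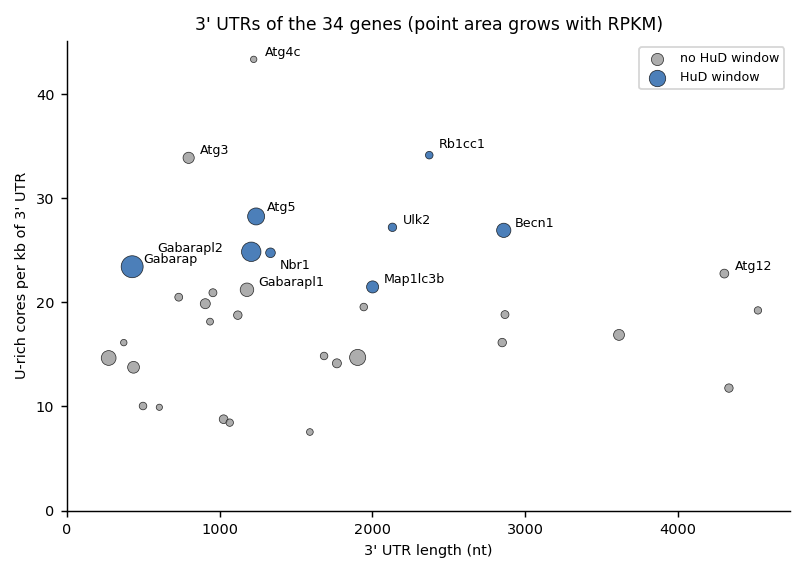
Length of the 3′ UTR (nt) against its U-rich cores per kb for the 34 genes, with HuD-bound genes in blue and point area growing with RPKM in total RNA of control cells. The 8 bound genes lie at 21.5 cores per kb or above, and 23 of the 26 others lie below.

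Several abundant members had no window. Wipi1, which encodes a PI3P binding protein, stood at 43.5 RPKM in total RNA of control cells and had 14.7 cores per kb. Atg101, a stabilizer of the ULK1 complex, stood at 35.6 RPKM with a 3′ UTR of 273 nt and 14.7 cores per kb. Gabarapl1, the closest relative of Gabarap, stood at 28.8 RPKM and 21.2 cores per kb, just below Map1lc3b, and was not listed as bound.

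Elavl4 itself was read first as a check of the labels. In total RNA it stood at 78.3 and 97.4 CPM in control cells and at 237 and 212 CPM in HuD cells, and in polysomal RNA at 90.3 and 118 against 243 and 225 CPM. The 3′ end counts of mouse Elavl4 (38.5 to 78.1 CPM in control and 31.4 to 54.6 CPM in HuD libraries) were lower in HuD cells in each same-numbered pair, but the transgene is a human cDNA, so they say nothing on its induction. Totals ran from 21296012 to 36284728 counts in RNA-Seq and POL-Seq, with replicate 2 of the control POL-Seq the lowest, and from 12986862 to 15751036 in the 3′ end table. The 2 control POL-Seq libraries differed enough that all-gene counts moved with them. When replicate 1 was left out and replicate 2 stood alone, 255 genes rose and 117 fell at an adjusted p-value of 0.05 (edgeR, Benjamini-Hochberg) for HuD against control in polysomal RNA, and with replicate 2 left out 1 rose and 0 fell. Of neuronal markers, Tubb3, Nefl and Gap43 were at 156 to 616 CPM in total RNA and Stmn2 was under 1 CPM. Of 6 motor neuron markers, Isl1 (34.7 to 43.0 CPM), Slc18a3 (7.01 to 8.40 CPM), Lhx3 and Chat (0.449 to 0.544 CPM) had counts, and Mnx1 and Slc5a7 were not among the genes counted, nor were the 3 microglial and 3 fibroblast markers read here.

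The machinery ran over a wide range of mRNA levels in total RNA of control cells, given as RPKM with SD over 2 libraries. The ATG8 genes led, with Gabarap at 86.3 ± 3.42 and Gabarapl2 at 66.2 ± 4.35 RPKM. Atg5 (49.2 ± 0.887), Wipi1 (43.5 ± 1.26), Atg101 (35.6 ± 0.845), Becn1 (32.8 ± 0.948) and Gabarapl1 (28.8 ± 2.51) came next. Map1lc3b (21.8 ± 3.27) and Map1lc3a (20.6 ± 2.79) did not differ beyond their SD in RPKM. This closeness and the ranking depend on the length used, which joins the exons of all annotated transcripts. In CPM Map1lc3b stood at 164 and Map1lc3a at 24.3, over 7517 and 1181 nt of exons. Becn1 stood at 232 CPM over 7065 nt. At the low end stood Pik3r4, the regulatory subunit of the PI3-kinase, at 1.80 ± 0.00958, the protease Atg4c at 1.67 ± 0.117, and Tfeb, the transcription factor that drives lysosomal and autophagy genes, at 1.22 ± 0.0138 RPKM. Of the 34 genes, 20 lay at or above the median of all protein coding genes, 6.94 RPKM.

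**Figure D3:**
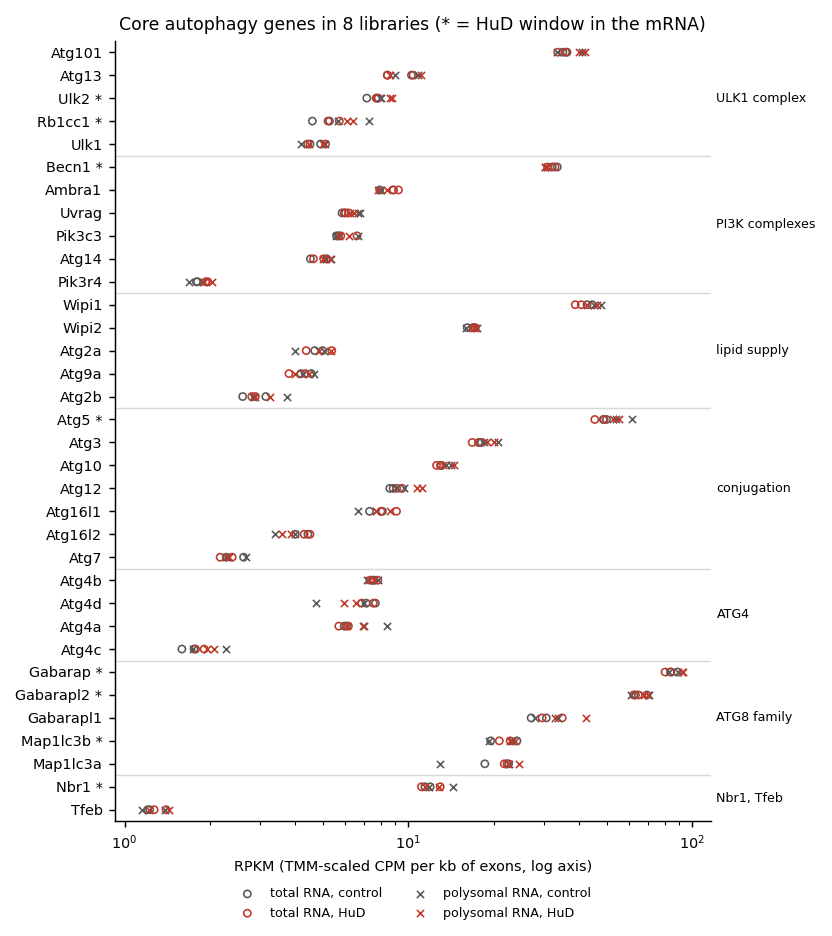
Level of the 34 genes in RPKM (log axis) in each of the 8 RNA-Seq and POL-Seq libraries, grouped by role, with HuD-bound genes starred, circles for total RNA, crosses for polysomal RNA, grey for control and red for HuD. Levels span from 1.22 (Tfeb) to 86.3 RPKM (Gabarap) in total RNA of control cells, and control and HuD libraries largely overlap.

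The first comparison asked whether the abundance of these mRNAs differed between HuD and control cells. None of the 34 genes passed in total RNA (edgeR quasi-likelihood test), at an adjusted p-value of 0.05 or at an unadjusted one, which 2.64% of all 14906 genes tested reached. DESeq2 also called 0 of 34 at either threshold. Log2 changes ran from -0.13 (Wipi1) to 0.16 (Gabarapl1) with SEs of 0.07 to 0.21, 20 genes lay above 0, and the median was 0.01 beside 0.00 over all genes. Fewer cells with an mRNA and less of it per cell cannot be told apart in these bulk samples.

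Wipi1 came closest to the threshold. It stood at 196 and 188 CPM in control cells and at 179 and 171 CPM in HuD cells, so that both HuD libraries were the lower, with a log2 change of -0.13 (SE 0.08, edgeR adjusted p = 1.00). Atg9a, the membrane protein of the vesicles that seed the autophagosome, was at 24.1 and 26.2 CPM in control and 24.9 and 21.9 CPM in HuD cells, which overlap. Atg7, the E1-like enzyme of both conjugation reactions, was at 15.9 and 18.3 against 15.1 and 16.7 CPM, also overlapping. The lowest p-values upward belonged to Atg16l1, Ambra1 and Atg12. Atg16l1, which places the conjugation enzyme on the membrane, was at 70.2 and 77.9 CPM in control and 77.1 and 87.4 CPM in HuD cells, and Ambra1, a Beclin 1 partner, at 48.5 and 54.1 against 54.2 and 56.5 CPM. Their log2 changes were 0.15 (SE 0.11) and 0.11 (SE 0.08), with adjusted p-values of 1.00 (edgeR, Benjamini-Hochberg).

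The next comparison asked the same of mRNA in polysomes, the pool that is being translated. At the unadjusted threshold 1 of the 34 genes, Atg12, rose and the others did not pass, beside 4.17% of all genes, and no member passed after adjustment (edgeR, smallest adjusted p = 0.969). DESeq2 called 2 at the unadjusted threshold, Atg12 and Map1lc3a, and 0 after adjustment. The median log2 change was 0.01 and 19 of 34 lay above 0.

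Atg12, the ubiquitin-like protein that is joined to ATG5, stood in polysomal RNA at 74.5 and 69.7 CPM in control cells and at 82.9 and 86.1 CPM in HuD cells. The HuD libraries were the higher with no overlap, by 0.23 on the log2 scale (SE 0.08, edgeR adjusted p = 0.969). With 2 libraries against 2, groups often separate without any effect. The share of all genes that separate was not computed, so separation in RNA-Seq or POL-Seq is description only. In total RNA Atg12 stood at 68.1 and 66.3 against 70.1 and 73.3 CPM, a log2 change of 0.09 (SE 0.08). Without replicate 2 of the HuD POL-Seq it no longer passed the unadjusted threshold in polysomal RNA (log2 change 0.20, SE 0.11).

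Gabarapl1 was second by p-value upward. In polysomal RNA it stood at 67.8 and 56.3 CPM in control and at 85.2 and 66.1 CPM in HuD cells, higher in both same-numbered pairs although the groups overlap (log2 change 0.28, SE 0.14, edgeR adjusted p = 0.969). This value moved with single libraries, to 0.09 or 0.46 without replicate 1 or 2 of the HuD POL-Seq and to 0.43 or 0.17 without replicate 1 or 2 of the control POL-Seq. Map1lc3a, the LC3A gene, was at 26.7 and 15.2 CPM in control and 28.9 and 26.4 CPM in HuD cells. Its log2 change of 0.39 (SE 0.21, edgeR adjusted p = 0.969), the highest of the 34, came with a control library, replicate 2, far below the other 7 libraries (22.0 CPM or more). With control replicate 1 left out the log2 change was 0.87 and the adjusted edgeR p-value 0.0213, but the control arm is then that single library, assumed to vary like the other groups. With control replicate 2 left out the log2 change was 0.06.

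Downward, Atg4a, a protease that trims ATG8 proteins, was at 18.6 and 22.3 CPM in control and 16.2 and 18.4 CPM in HuD polysomal RNA. Both HuD libraries were below both control libraries, with a log2 change of -0.24 (SE 0.12, edgeR adjusted p = 0.969). Uvrag, a PI3-kinase subunit of the maturation step, was at 60.1 and 60.8 against 56.3 and 58.0 CPM, and Atg5 at 127 and 144 against 123 and 130.2 CPM, with log2 changes of -0.08 (SE 0.07) and -0.09 (SE 0.09), and neither passed.

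Translation efficiency (TE) was the ratio of polysomal to total RNA, and the effect of HuD on it was the interaction in a fit to all 8 libraries. It shares those libraries with the comparisons above. No member passed in edgeR at an adjusted or unadjusted p-value of 0.05, which 0.979% of all genes reached unadjusted, and DESeq2 called 0 as well. The SEs of 0.10 to 0.30 leave effects of this size unresolved. The median log2 change in TE was 0.02 over the 34 genes, beside -0.01 over all genes. Over the 8 bound genes it was 0.05, over the other 26 it was 0.02, and over the 1282 targets 0.02.

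The 5 ATG8 genes lay above 0 in TE, from 0.13 (Gabarapl1) to 0.29 (Map1lc3a), with a median of 0.13, but with 1 library left out Map1lc3a (-0.04, control POL-Seq replicate 2), Gabarapl1 (-0.07, HuD POL-Seq replicate 1) or Map1lc3b (-0.03, control RNA-Seq replicate 1) lay below. The same 5 lay above 0 in polysomal RNA (0.06 to 0.39), except for Gabarapl2 (-0.03) without control replicate 2, while in total RNA 3 lay above and 2 below (-0.07 to 0.16). Gabarap came closest to the threshold. Its total RNA was at 164 and 155 CPM in control and 148 and 155 CPM in HuD cells, and its polysomal RNA at 165 and 153 against 172 and 169 CPM, so the polysomal HuD libraries were the higher without overlap. The log2 change in TE was 0.17 (SE 0.12, edgeR adjusted p = 1.00). Gabarapl2, the mRNA with the 4 adjoining windows shown above, was at 161 and 147 against 150.2 and 145 CPM in total RNA and at 164 and 141 against 162 and 157 CPM in polysomal RNA. Its log2 change in TE was 0.13 (SE 0.14, edgeR adjusted p = 1.00).

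None of the other 6 bound mRNAs passed in total RNA, polysomal RNA or TE. Becn1 was at 236 and 227 CPM in control and 218 and 232 CPM in HuD total RNA, and at 218 and 213 against 214 and 217 CPM in polysomal RNA. Its groups overlapped in both fractions, with log2 changes of -0.04 and 0.00 (SE 0.08 each). Map1lc3b was at 181 and 147 against 172 and 157 CPM in total RNA and at 174 and 144 against 179 and 171 CPM in polysomal RNA, where replicates of the control differed more than the groups. Nbr1 was at 78.5 and 82.0 against 89.0 and 76.4 CPM in total RNA and at 81.0 and 98.4 against 87.9 and 78.5 CPM in polysomal RNA. Rb1cc1 was at 67.4 and 77.4 against 83.9 and 76.5 CPM in total RNA, with a log2 change of 0.15 (SE 0.13), and at 83.1 and 107 against 93.7 and 89.6 CPM in polysomal RNA, with -0.05 (SE 0.13). Its groups overlapped in both fractions. Ulk2 was at 46.3 and 42.6 against 46.0 and 46.8 CPM in total RNA. In polysomal RNA, at 47.9 and 47.5 against 52.1 and 51.4 CPM, its HuD libraries were the higher without overlap, with a log2 change of 0.12 (SE 0.08) that did not pass.

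Among the other roles the TE estimates scattered around 0. Of the 5 ULK1 complex genes 3 lay above 0, from -0.20 (Rb1cc1) to 0.17 (Atg101), with the kinase Ulk1 at 0.01 and its regulator Atg13 at -0.02. Of the 6 PI3-kinase genes 2 did, with Becn1 at 0.04, Atg14, the subunit of the initiating complex, at -0.02, Uvrag at -0.11 and the catalytic subunit Pik3c3 at -0.18. Of the 5 genes of lipid supply (Atg2a, Atg2b, Atg9a, Wipi1 and Wipi2) 4 did, and of the 7 conjugation genes 5 did, with Atg12 at 0.13. The 4 ATG4 proteases ran from -0.22 (Atg4a) to 0.12 (Atg4d), and Nbr1 and Tfeb were at -0.15 and -0.08. Without replicate 1 of the control POL-Seq, the TE estimates ran from -0.37 (Rb1cc1) to 0.77 (Map1lc3a), with 18 of the 34 above 0. Atg4d was at 0.44 and Atg101 at 0.33 in that fit, whose control arm in polysomal RNA rests on 1 library.

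**Figure D4:**
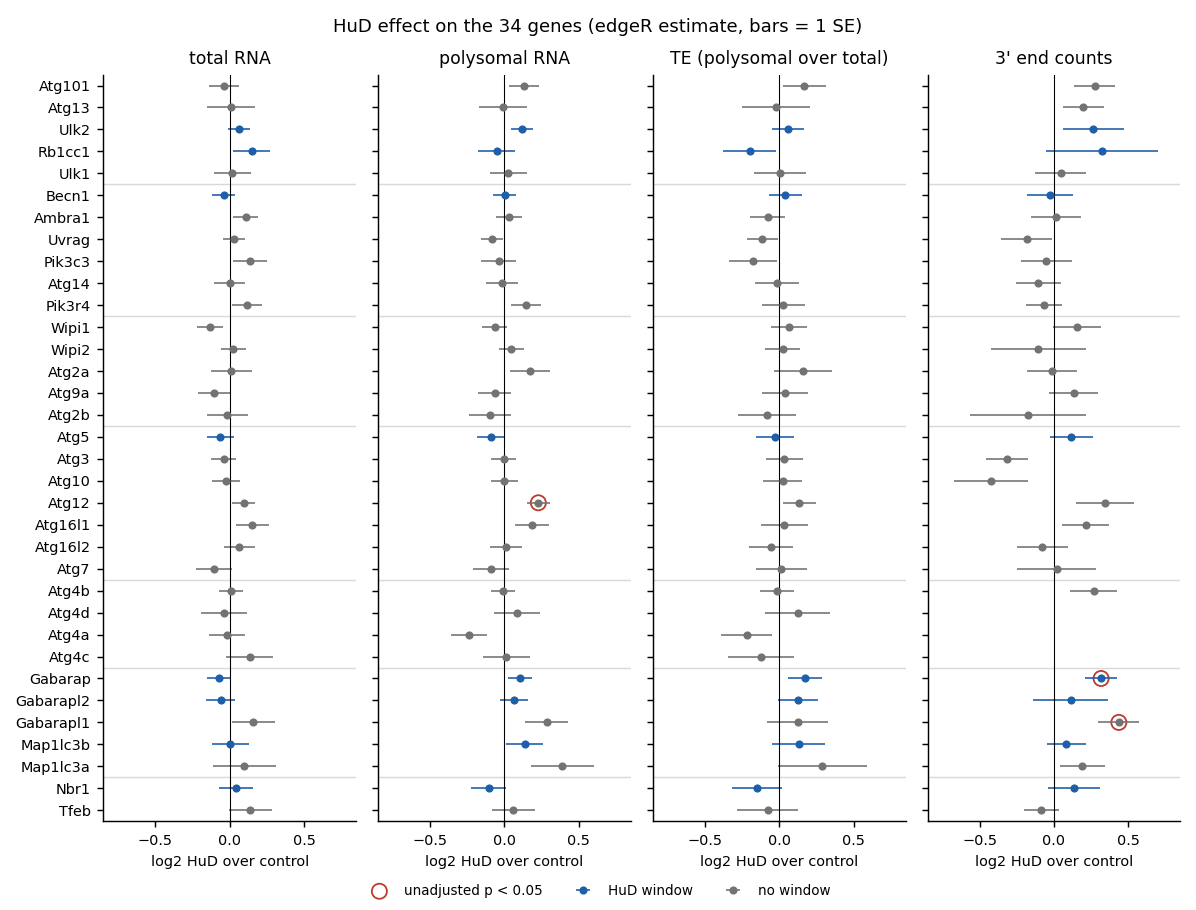
Log2 change with HuD of the 34 genes in total RNA, polysomal RNA, TE and 3′ end counts (points, bars 1 SE), grouped by role, with bound genes in blue and unadjusted p-values under 0.05 circled. Atg12 in polysomal RNA and Gabarap and Gabarapl1 in 3′ end counts are circled, and the 5 ATG8 genes lie above 0 in polysomal RNA, TE and 3′ end counts, which single left-out libraries undo.

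How far each mRNA was loaded on polysomes was read from polysomal minus total RNA within each condition, which again uses the same libraries. None of the 34 genes passed the adjusted threshold in control cells (edgeR, 0.174% of all genes) or in HuD cells (0.537%), and DESeq2 called 0 in each. At an unadjusted p-value under 0.05, 4 passed in control cells (10.7% of all genes) and 3 in HuD cells (12.4%), and DESeq2 called 4 and 1. The median log2 difference was 0.07 in control and 0.08 in HuD cells, with 21 and 25 of 34 genes above 0.

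In control cells the largest positive differences were those of Rb1cc1 (0.39), Atg4a (0.35), Atg4c (0.25), Atg5 (0.22) and Atg2b (0.19), the last a lipid transfer protein. Rb1cc1 was at 67.4 and 77.4 CPM in total and 83.1 and 107 CPM in polysomal RNA (SE 0.13, edgeR adjusted p = 0.458). Both polysomal libraries were the higher. Uvrag, at 52.7 and 54.2 CPM in total and 60.1 and 60.8 CPM in polysomal RNA, passed unadjusted too (0.18, SE 0.07), as did Atg4a and Atg5. The largest negative differences were those of Atg4d (-0.32), Map1lc3a (-0.20), Atg16l2 (-0.19), Becn1 (-0.10) and Atg16l1 (-0.10). Atg4d was at 55.6 and 51.6 CPM in total and at 50.7 and 34.3 CPM in polysomal RNA, the last value from the shallow control library. Without control replicate 1 of the POL-Seq the differences ran from -0.67 (Map1lc3a) to 0.56 (Rb1cc1). Without replicate 2 they ran from -0.22 (Atg16l1) to 0.22 (Gabarapl1). Each of these fits rests on a single control POL-Seq library, so only the sizes are given.

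In HuD cells the order changed at the top. Atg101 (0.24), Atg12 (0.24), Gabarapl1 (0.22), Rb1cc1 (0.19) and Atg5 (0.19) were the highest, and Atg16l2 (-0.24), Atg4d (-0.20), Ambra1 (-0.15), Atg16l1 (-0.07) and Becn1 (-0.06) the lowest. Atg12 was at 70.1 and 73.3 CPM in total and 82.9 and 86.1 CPM in polysomal RNA of HuD cells (SE 0.08, edgeR adjusted p = 0.264). Atg16l2, a homologue of Atg16l1, was at 38.1 and 36.4 against 32.6 and 30.4 CPM, so that both polysomal libraries were the lower (SE 0.10, edgeR adjusted p = 0.393). Becn1, Atg16l1, Atg16l2 and Atg4d were among the 5 lowest in both conditions, and Rb1cc1 and Atg5 among the 5 highest.

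The 3′ end counts had 3 libraries per group. They count reads at known polyadenylation sites, and 31 of the 34 genes had an end in the table, with Atg4a, Atg4c and Atg4d not in it, among 9621 genes. At an unadjusted p-value under 0.05 Gabarapl1 and Gabarap rose and none fell (edgeR, 5.87% of all genes), and none passed after adjustment. DESeq2 called the same 2 unadjusted and 0 adjusted. The libraries with the same replicate number deviated together (correlations 0.427, 0.697 and 0.551), and with the replicate number as a block 5 genes rose and 1 fell at an unadjusted p-value under 0.05, beside 18.7% of all genes. After adjustment 1 of 31 passed the blocked fit, Gabarapl1, beside 2.26% of all genes.

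Gabarapl1, the GABARAP-like ATG8 gene with no HuD window, stood at 91.3, 85.8 and 100.1 CPM in control and at 124, 109 and 142 CPM in HuD libraries. Every HuD library was above every control library. The log2 change was 0.44 (SE 0.14, edgeR adjusted p = 0.660), and with the block 0.43 (SE 0.08, edgeR adjusted p = 0.0242). With the pair of replicate 1, 2 or 3 left out of the blocked fit the adjusted p-values were 0.174, 0.0430 and 0.0330, so the adjusted call needed pair 1, and the log2 change stayed between 0.39 and 0.46. In RNA-Seq both pairs were higher as well, 61.6 and 54.5 against 70.1 and 59.6 CPM, with a log2 change of 0.16 (SE 0.14) that did not pass.

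Gabarap was at 142, 141 and 139 CPM in control and at 172, 172 and 183 CPM in HuD libraries. The groups did not overlap, and the log2 change was 0.32 (SE 0.11, edgeR adjusted p = 0.694). In the blocked edgeR fit the adjusted p-value was 0.0584, and with ends within 20 nt merged as well it was 0.0486. Its total RNA did not move the same way, with a log2 change of -0.07 (SE 0.08). Without replicate 3 of either group it no longer passed the unadjusted threshold, with a log2 change of 0.31 (control left out) or 0.29 (HuD left out). The reads of Gabarap come from ends listed at chr11:69994940 and chr11:69994951, which are so close that reads near both are counted for each.

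In the blocked fit Atg12, Atg16l1 and Atg101 also rose and Atg3 fell at an unadjusted p-value under 0.05. Atg12 was at 72.1, 59.8 and 81.8 CPM in control and 95.2, 67.8 and 108 CPM in HuD libraries, higher in each pair although the groups overlap (log2 change 0.33, edgeR adjusted p = 0.0766 with the block). Atg16l1 was at 163, 133 and 189 against 194, 163 and 205 CPM, again higher in each pair with overlap, summed over 3 ends that lie 3 nt apart and share reads. Atg101 was at 23.3, 26.5 and 24.6 against 28.8, 28.5 and 32.6 CPM, where the HuD libraries were all the higher. Atg3, the E2-like enzyme that transfers ATG8 proteins to lipid, was at 34.7, 38.7 and 36.9 CPM in control and 32.0, 31.0 and 25.6 CPM in HuD libraries, where all HuD values were the lower (log2 change -0.32, SE 0.11, edgeR adjusted p = 0.140 with the block). Its counted end is that of a transcript annotated as a retained intron, and its total RNA, at 57.0 and 55.7 against 52.9 and 56.5 CPM, overlapped. Atg4b, the main LC3 protease, was at 10.5, 10.3 and 10.4 against 13.0, 11.3 and 13.2 CPM, also without overlap, and did not pass in either fit. Of the 6 genes past the unadjusted threshold with the block, Gabarap alone had a HuD window.

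**Figure D5:**
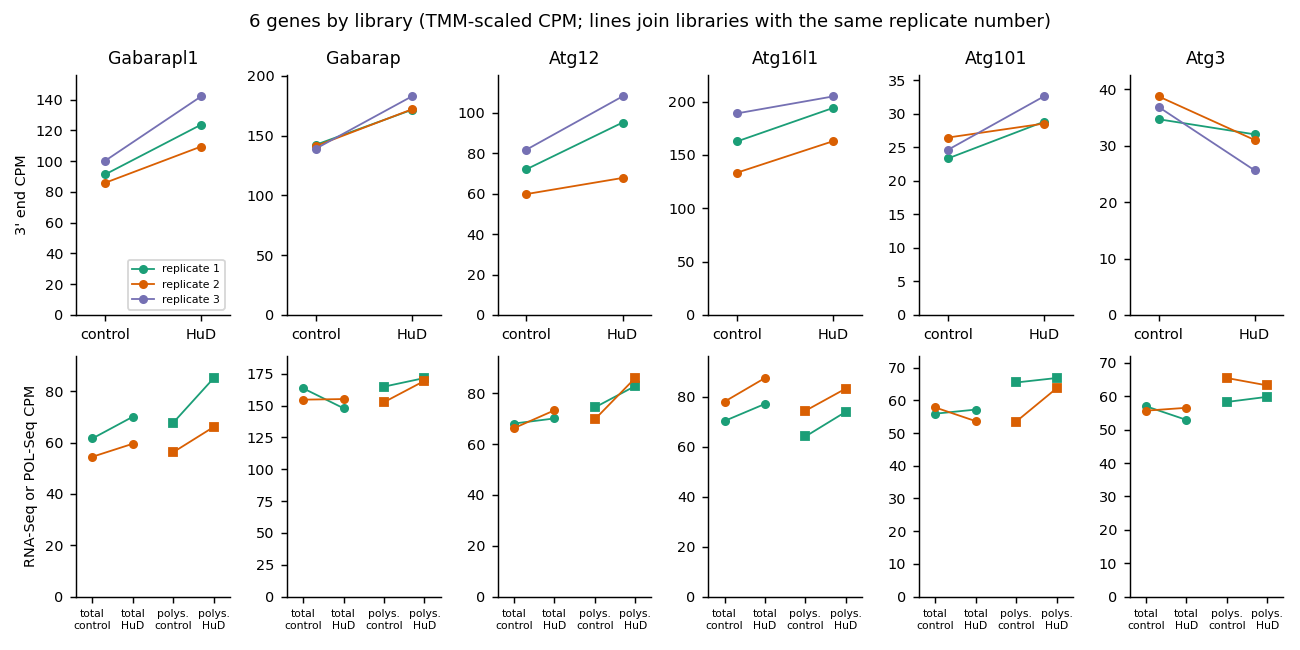
CPM of the 6 genes with an unadjusted p-value under 0.05 in the blocked fit to 3′ end counts, by library, with lines joining libraries of the same replicate number. The upper row holds 3′ ends (3 pairs) and the lower row total and polysomal RNA (2 pairs each). Gabarapl1, Atg12 and Atg16l1 are each higher in HuD in every pair of both rows. Same-numbered control and HuD libraries correlated at 0.452 in total and 0.360 in polysomal RNA (deviations from group means), a weak check of pairing with 2 replicate numbers.

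By role, the ATG8 genes (5 of 5) and the ULK1 complex genes (5 of 5) lay above 0 in 3′ end counts, with medians of 0.19 and 0.26. These counts did not hold with libraries left out, since in the blocked fit Gabarapl2 was at -0.13 without pair 1 and Ulk1 at -0.05 or -0.06 without pair 2 or 3, and Gabarapl2 and Rb1cc1 rest on few reads. Of the PI3-kinase genes, 5 of the 6 lay below 0 with a median of -0.06. The lower members by p-value besides Atg3 were Atg10, the E2-like enzyme for ATG12, at 3.78, 3.20 and 4.38 against 2.82, 2.26 and 3.39 CPM, and Uvrag at 12.1, 12.1 and 9.77 against 9.06, 10.6 and 10.2 CPM. Both overlapped between groups. The median over the 31 genes was 0.08, beside 0.00 over all genes, and over the 8 bound genes 0.13.

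The listed ends did not catch all of these mRNAs alike. In control cells Wipi2 stood at 176 CPM in total RNA and 2.13 CPM in 3′ ends, and Gabarapl2 at 154 and 2.96 CPM. Their 3′ end values therefore rest on 17 to 49 reads per library and say little on the mRNA. At the other extreme Tfeb stood at 6.89 CPM in total RNA and 88.5 CPM in 3′ ends, with ends listed 1 to 4 nt apart, whose reads were counted for each.

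Use of alternative 3′ ends was computed for 12 members with at least 2 listed ends, and none passed at an adjusted or unadjusted p-value of 0.05 (edgeR diffSpliceDGE with Simes' method, 0.151% of 3317 genes unadjusted). For 10 of the 12 the ends lie within 20 nt of each other and share reads, so the test says nothing about them. Map1lc3b and Becn1 kept 2 ends after such ends were merged. The proximal end of Map1lc3b, the one 9 nt behind a HuD window, took 50.7 ± 2.46% of its reads in control and 49.5 ± 4.70% in HuD libraries (SD, n = 3), and the distal end the rest. The difference was smaller than the spread between replicates. Becn1 used its end at chr11:101288262, downstream of both windows, for 98.8 ± 0.347% of reads in control and 99.0 ± 0.0514% in HuD libraries (SD, n = 3).

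The neighbouring parts of the pathway were read from 4 lists of genes outside the 34. None of 15 cargo receptors, 16 genes of fusion with the lysosome, 29 lysosomal genes and 17 other regulators passed in total RNA, polysomal RNA or TE at an unadjusted p-value under 0.05 in the edgeR fit without a block. In 3′ end counts, where 14, 12, 22 and 15 of them had a listed end and 5.87% of all genes passed, 3 lysosomal genes rose at that threshold, namely Atp6ap1 (log2 change 0.48, SE 0.12) and Atp6v1b2 (0.33, SE 0.10) of the proton pump and the protease Ctsd (0.32, SE 0.12). The regulators Trp53inp2 (0.48, SE 0.18) and Bcl2 (0.52, SE 0.20) rose, and the ER-phagy receptor Fam134b fell by 0.75 on the log2 scale (SE 0.30). None passed after adjustment, and with the block Atp6ap1, Atp6v1b2 and Trp53inp2 did, beside 2.26% of all genes (edgeR adjusted p = 0.0179, 0.0390 and 0.0262).

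HuD windows were listed on 4 of the 15 receptors, 2 of the 16 fusion genes, 6 of the 29 lysosomal genes and 3 of the 17 regulators, beside 9.9% of all protein coding genes with counts. The highest summed coverage was 103 reads over 2 windows of Rab2a, a GTPase of the fusion step, then 89 reads of Psap, the precursor of the saposins, and 56 of the protease Ctsb. Sqstm1, the p62 receptor and a relative of Nbr1 in function, had 1 window of 38 reads and 7 deletions.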

How the data were processed

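RNA-Seq, POL-Seq, 3′ end sequencing and CRAC of NSC-34 cells were read. The authors aligned reads to GRCm38 with STAR 2.5.3a and, for CRAC, TopHat2 2.0.14, with Gencode M6. They deposited counts per gene (not normalized) for total and polysomal RNA, and counts of reads at known polyadenylation sites for 3′ ends. For CRAC the authors pooled replicates and deposited coverage and deletion counts, a p-value combined from both (not adjusted) and a score against their weight matrix.

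From these counts, TMM-scaled CPM and quasi-likelihood tests were computed in R 4.3.3 with edgeR 4.0.16 (filterByExpr, all genes, Benjamini-Hochberg at 0.05), in 1 fit to the 8 RNA-Seq and POL-Seq libraries and 1 to the 6 3′ end libraries, whose counts were summed over unique ends. Ends were tested with diffSpliceDGE. DESeq2 1.42.0 was an alternative. RPKM used the joined length of all annotated exons of a gene in GENCODE vM21, which also gave the 3′ UTRs. CRAC lines at 1 position were reduced to unique windows, moved by 1 nt (plus strand) or -2 nt (minus strand) to match the transcripts. Python 3.11.15, pandas 2.3.3 and matplotlib 3.10.9 were used. The scripts were tested on simulated data.

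Depth limits precision through the counting error of low genes, and p-values measure the spread between 2 (RNA-Seq, POL-Seq) or 3 libraries per group, which the study's methods call biological replicates. Same-numbered 3′ end libraries correlated in all 3 pairs (deviations from group means, 0.427 to 0.697). The main 3′ end fit ignored this pairing, and the fit with the replicate number as a block is given beside it. Adjusted, the main fit called 2 genes higher and 3 lower of 9621, and the blocked fit 100 and 117 (edgeR). Values of 3′ end counts given without mention of the block come from the main fit. In RNA-Seq and POL-Seq the same correlations between groups ran from 0.255 to 0.541. With 2 libraries a group their deviations mirror each other, so the check is weak, and the block is an alternative there. Members, lists and alternatives were chosen with earlier results of these data known. All members enter the counts and ranges, and those named with values have a window, an unadjusted p-value under 0.05 or 1 of the 3 lowest p-values in a direction (for polysomal minus total RNA the 5 largest differences), with a few others named for their role.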

Additional observations from a re-analysis of the deposited data

How the results depend on the processing

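Alternatives changed the normalization (RLE), the filter, the tool (DESeq2), the block and the merging of ends, or omitted 1 library at a time. The number of the 34 genes called at an unadjusted p-value under 0.05 in total RNA was 0 in edgeR and stayed at 0 except with a replicate block, where it was 1 (Atg16l1, beside 533 higher and 385 lower of 14906 genes). In polysomal RNA it was 1, 2 with DESeq2 and 5 with the replicate block (Gabarapl1, Atg12, Atg16l1, Map1lc3a and Atg4a, beside 643 higher and 743 lower). For TE it was 0 in edgeR and 0 with the block. Without replicate 1 of the control POL-Seq, which leaves 1 control library, only sizes are given. The log2 changes then ran from -0.37 (Atg4a) to 0.87 (Map1lc3a) in polysomal RNA and from -0.37 (Rb1cc1) to 0.77 (Map1lc3a) in TE. For polysomal minus total RNA in control cells the adjusted count was 0. Without replicate 1 of the control POL-Seq the differences ran from -0.67 (Map1lc3a) to 0.56 (Rb1cc1). For 3′ end counts the unadjusted count was 2, 6 with the replicate block, and 1 to 3 with a library left out. It was also 6 with the replicate block and nearby ends merged (chosen after the data were seen, as were the fits without a pair). The genes with a HuD window fell from 8 to 3 when the authors' p-value had to be under 0.05, and were 6 with at least 10 covering reads and 8 in 3′ UTRs alone. The counts for use of 3′ ends (unadjusted) and for polysomal minus total RNA in HuD cells (adjusted) were 0 throughout. The unadjusted count of the latter rose from 3 to 10 with the block. Over all 14906 genes it rose as well, from 723 higher and 1132 lower to 1371 higher and 1594 lower. Of 14 single-gene values followed over 171 alternatives, 0 turned direction, 37 no longer passed and 9 newly passed the unadjusted threshold. Nearly all of the 14 had passed that threshold in the main or the blocked fit, so a stable direction was likely beforehand. Values outside the 14 did turn direction, as given above for TE of Map1lc3a, Gabarapl1 and Map1lc3b. The cause of these shifts was not tested. The block on 2 replicate numbers in RNA-Seq and POL-Seq changed no adjusted call of a member. Of the 4 neighbouring lists it newly passed, unadjusted, Vps16 and Zkscan3 in total RNA and Ccpg1, Rab2a, Tfe3 and Trp53inp1 in polysomal RNA. In TE it newly passed Bnip3, beside 163 higher and 199 lower of 14906 genes. In polysomal minus total RNA of HuD cells, Rab2a, Arl8b, Bnip3, Bnip3l and Lamp2 (higher) and Vps16 (lower) newly passed after adjustment. Over all genes 150 higher and 266 lower did so with the block. Libraries of 2 per group and SEs of 0.07 to 0.30 on the log2 scale limit what could be seen, and 3′ end values of Wipi2, Gabarapl2, Atg2b, Rb1cc1 and Atg10 rest on few reads.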
